A study of Mus musculus with 3 samples.

Results

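The genes described here encode the enzymes that cut extracellular matrix and shed cell-surface proteins, and the proteins that hold those enzymes in check: matrix metalloproteinases (MMPs), ADAMs, ADAMTS proteinases, ADAMTS-like genes, tissue inhibitors of metalloproteinases (TIMPs) and Reck. The rule that picks them uses gene symbols and no difference between populations, and each gene is read through its brightest probe over the 3 arrays. This gave 79 of the 28076 genes on the array, measured by 132 of 41156 probes. Expression was profiled in stromal cells of the mesenteric lymph node, the node that drains the gut, from wild-type C57BL/6NCrl mice. The populations were lymphatic endothelial cells (LEC; gp38+ CD31+), which line the lymph sinuses, blood endothelial cells (BEC; gp38- CD31+), which line the vessels, and fibroblastic reticular cells (FRC; gp38+ CD31-), which build the reticular fibre network. All were CD45- and CD24- and came from nodes digested with collagenase. The labels give a mean sorted purity of 88% with an error of 1.5 over the subsets, and leave out the age of the mice and the number pooled.

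Each population had 1 single-colour array, so the differences are between single arrays, with no replicate and no statistical test. A level is the log2 signal of a probe relative to the 75th percentile of its own array, and levels are compared between populations for the same probe only. A gene is called higher at 4-fold, that is 2 on the log2 scale. Where every probe of a gene was dim on one array, that array was set to at least its lowest signal well above background (-4.20 in LEC, -4.38 in BEC and -4.34 in FRC), and the fold then carries the words "at least". The probe with the highest mean for Mmp9 was spotted 10 times, and its kept spots had an SD of 0.03 in LEC (n = 8), 0.33 in BEC (n = 10, where no spot was well above background) and 0.05 in FRC (n = 9). The scanner software's own error was between 10% and 21.8% of the signal, with a median of 10.4%, over the members well above background. These errors cover the spot and not differences between mice, sorts or labelling reactions.

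Most markers of each sorted population were brightest there. Of 12 FRC markers, FRC was 4-fold or more above LEC for 10 and above BEC for 10. Thy1 went the other way, 4.74-fold higher in LEC than in FRC. Of 8 LEC markers, LEC was that much above FRC for 7 and above BEC for 5, while Ccl21a was lowest in LEC. Of 8 BEC markers, BEC was that much above FRC for 8 and above LEC for 5. The endothelia also shared markers, as BEC was that much above FRC for 6 LEC markers and LEC for 7 BEC markers. Prox1, a transcription factor of lymphatic endothelium, read 3.53 in LEC, -0.51 in BEC and -3.56 in FRC. The VEGF receptor gene Flt1 read 2.47 in LEC, 6.36 in BEC and -1.13 in FRC. The fibroblast receptor gene Pdgfra read -0.86 in LEC, -2.82 in BEC and 5.14 in FRC. Markers of other cells were also present. Of 8 pan-leukocyte markers, 7, 8 and 7 were well above background in LEC, BEC and FRC, with summed levels of 17.2, 33.7 and 8.86 times the 75th percentile. For 8 mesothelial markers the summed levels were 4.63, 2.83 and 11.6, and for 9 pericyte and smooth muscle markers 69.0, 96.5 and 95.9. Their part in the results below was not tested. In sorted bulk RNA, fewer cells of a type and less RNA per cell cannot be told apart.

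Most secreted and membrane-bound metalloproteinases are made as inactive precursors and hold a zinc ion in the active site. MMPs cut collagens, gelatins and proteoglycans, ADAMs are membrane-anchored and release growth factors, cytokines and adhesion molecules, and ADAMTS enzymes are secreted and trim procollagen or cut large proteoglycans. TIMPs bind the active enzymes, and Reck is an inhibitor tethered to the cell membrane. In lymphoid tissue these enzymes act on the reticular fibres, the basement membranes of vessels and receptors on cell surfaces.

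A run of 8 collagenase, stromelysin and related MMP genes on this array lie side by side on chromosome 9, with probes from 7282762 (Mmp13) to 7697700 (Mmp7) on mouse build mm9. The promoters of this cluster, apart from Mmp12, are shown because AP-1 and TATA motifs recur in them while its members were detected in different populations. Of the 48 members with a RefSeq promoter (GRCm38.p6; 250 bases before to 50 after the start), 11 held the AP-1 motif TGANTCA on either strand, and 7 of these 11 are among the 8 cluster members. Over all 32851 listed promoters, 7.81% held it. The 8 cluster members also all held a TATAAA box on either strand in a listed window, against 13.6% of all promoters. The 120 bases before the start are printed 5′ to 3′ on the strand of the gene, with AP-1 and TATA motifs that lie wholly inside in capitals.
Mmp13, chr9:7272394-7272513 (+): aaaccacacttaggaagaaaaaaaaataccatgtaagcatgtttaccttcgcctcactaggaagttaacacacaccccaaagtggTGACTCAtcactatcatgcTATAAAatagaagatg
Mmp3, chr9:7445702-7445821 (+): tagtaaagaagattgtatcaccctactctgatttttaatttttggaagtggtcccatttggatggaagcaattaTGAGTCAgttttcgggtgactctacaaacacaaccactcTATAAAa
Mmp1a, chr9:7464021-7464140 (+): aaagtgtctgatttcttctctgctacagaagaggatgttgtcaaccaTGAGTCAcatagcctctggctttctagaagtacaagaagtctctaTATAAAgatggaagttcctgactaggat
Mmp10, chr9:7502222-7502341 (+): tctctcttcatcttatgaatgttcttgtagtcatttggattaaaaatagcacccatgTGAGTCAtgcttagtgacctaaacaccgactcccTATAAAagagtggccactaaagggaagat
Mmp8, chr9:7558309-7558428 (+): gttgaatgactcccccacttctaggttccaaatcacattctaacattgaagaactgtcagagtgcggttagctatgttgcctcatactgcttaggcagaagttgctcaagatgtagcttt
Mmp20, chr9:7628111-7628230 (+): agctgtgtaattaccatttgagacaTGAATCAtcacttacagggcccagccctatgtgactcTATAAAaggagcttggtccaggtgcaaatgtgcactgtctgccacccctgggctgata
Mmp7, chr9:7691970-7692089 (+): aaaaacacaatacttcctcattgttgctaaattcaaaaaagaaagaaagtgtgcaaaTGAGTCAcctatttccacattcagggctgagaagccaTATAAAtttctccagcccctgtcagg

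Counted from the start, the AP-1 motif began at -35 in Mmp13, -46 in Mmp3, -73 in Mmp1a, -63 in Mmp10 and Mmp7, and -95 in Mmp20. In Mmp12, whose windows are not printed, it began at -44. Mmp8 held none in its window, and its TATAAA match, at -3, runs past the bases shown. Mmp7 and Mmp12 each have 2 listed starts, and the motif lay before 1 of them; the Mmp7 window shown is the one that holds it. A motif match is a description of the letters and not a binding site. Mmp7 also held a further TATAAA match that begins before the bases shown. Apart from it, the TATAAA matches began between -58 (Mmp20) and 4 (Mmp12). The motifs thus recur without a fixed distance from the listed start, and the spacing between AP-1 and TATAAA was not tested. Only Mmp3 and Mmp13 among the 8 were at least 4-fold apart in any comparison, and 4 of the 8 (Mmp1a, Mmp8, Mmp12 and Mmp20) were well above background on no array. Mmp3 was brightest in FRC and Mmp13 in LEC, although their probes lie 173 kb apart. Genes induced by tissue dissociation, which include the AP-1 subunits Fos and Jun, were well above background on all 3 arrays for all 14 listed, with summed levels of 799.7 in LEC, 1514 in BEC and 617 in FRC. Fos itself read 6.63 in LEC, 7.43 in BEC and 6.63 in FRC, and Jun 4.09, 4.59 and 3.89. The part of dissociation in the levels of the cluster genes was not tested.

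Of the 79 genes, 60 had a probe well above background on at least 1 array, and 44 on all 3. The LEC array detected 49, the BEC array 49 and the FRC array 56. Well above background on the LEC array alone were 0 genes, on the BEC array alone 2 (Mmp7 and Mmp10) and on the FRC array alone 8 (Adam12, Adam23, Adamdec1, Adamts3, Adamts16, Adamts19, Adamts20 and Mmp16). The 19 dim on every array were 12 ADAM genes known mostly from the testis or brain (Adam1a, Adam1b, Adam2, Adam6a, Adam7, Adam18, Adam21, Adam22, Adam24, Adam29, Adam32 and Adam39), the von Willebrand factor proteinase gene Adamts13, and Mmp1a, Mmp8, Mmp12, Mmp20, Mmp21 and Mmp25. Dim here means not well above background, which is not the same as absent.

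In LEC against FRC, 58 members were compared. LEC had 5 members at least 4-fold higher, which is 8.62%, where 4.89% of all 18440 genes compared were that much higher in LEC. FRC had 17 members at least 4-fold higher, 29.3% against 5.93% of all genes. Of the 17, 4 are bounds (Adamts3, Adamts16, Adamts20 and Mmp16), detected on the FRC array alone and so compared only through it. The shares over all genes were counted in the same way. The median log2 difference over the members was -0.68, against 0.02 over all genes. In BEC against FRC, 60 members were compared. BEC was the higher side by 4-fold or more for 4 of them (6.67%, against 6.59% of all 18830 genes), and FRC for 22 (36.7%, against 7.57%). Of the 22, 6 are bounds: Adamts3, Adamts16, Adamts20 and Mmp16, with Mmp9 and Mmp19, which were dim in BEC. The BEC share is close to the background and says nothing about these genes as a set. The median was -1.02, against 0.09 over all genes. In LEC against BEC, LEC was the higher side by 4-fold or more for 7 of 52 members (13.5%, against 3.39% of all 18322 genes), and BEC for 2 (3.85%, against 3.38%), with a median of 0.07 against -0.07. Most markers of FRC were likewise higher in LEC than in BEC: of 12, LEC was 4-fold or more above BEC for 3 (Dcn by 6.84-fold, Ccl19 by 4.14-fold and Pdpn, which encodes the sorted antigen gp38, by 6.15-fold) and below it for Ccl21a, with a median difference of 1.56. Their part in the LEC against BEC differences of Mmp3, Mmp14, Timp2 and Reck, which were brightest in FRC, was not tested. The first 2 comparisons share the FRC array, so a gene bright there counts in both. In all, 31 members were called at least once, 15 of them lower than FRC in both endothelia and 2, Adamts9 and Timp4, higher than FRC in both. Adamts3, Adamts16, Adamts20 and Mmp16 are among the 15.

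**Figure D1:**
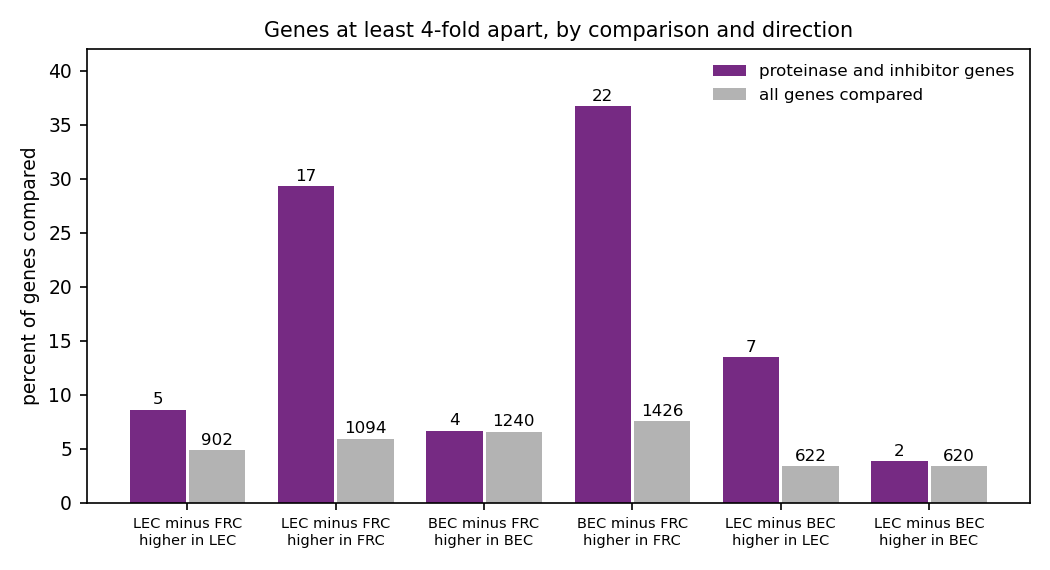
Percent of genes compared that were at least 4-fold apart, for each comparison and direction, in the 79 proteinase and inhibitor genes (purple) and in all genes compared (grey); the number above each bar is the count of genes. The purple bars for genes higher in FRC stand at 29.3% and 36.7%, against 5.93% and 7.57% in grey, while the bars for genes higher in BEC are nearly level.

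The interstitial collagenases cut native fibrillar collagen. Of the 3 on the array only Mmp13, collagenase 3, was detected. It read -1.86 in LEC, -4.07 in BEC and -6.60 in FRC, where it was dim. LEC was thus at least 5.57-fold above FRC and 4.61-fold above BEC, while the BEC difference from FRC was at least 1.21-fold. The BEC signal lies close to the lowest value well above background there. Mmp13 has 1 probe, on chromosome 9 at 7282762 to 7282821.

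The gelatinases, which degrade denatured collagen and type IV collagen of basement membranes, split between the populations. Mmp2, gelatinase A, read -0.73 in LEC, -1.86 in BEC and 4.62 in FRC. That is 40.6-fold lower in LEC and 88.8-fold lower in BEC than in FRC, and the endothelia differed by 2.19-fold. Mmp9, gelatinase B, read 2.78 in LEC, -4.70 in BEC and -1.67 in FRC. LEC was the bright array here, 21.8-fold above FRC and at least 142-fold above BEC, and BEC was at least 6.54-fold below FRC. The second Mmp9 probe gave a LEC minus FRC difference of 3.49 and a LEC minus BEC difference of at least 6.83. The 2 probes lie on chromosome 2, the brighter at 164780620 to 164780679.

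Mmp9 is also known from neutrophils and macrophages, so markers of those cells are given beside it. Of 9 neutrophil markers on the array, 3 were well above background in LEC, 5 in BEC and 3 in FRC, with summed levels of 2.46, 3.33 and 1.28. Ngp, Camp, Elane and Cxcr2 were dim on all 3 arrays. S100a8 read -1.44 in LEC, -1.55 in BEC and -1.52 in FRC, S100a9 read 0.48, 0.65 and -0.62, and Mpo read -0.92, 0.17 and -2.88. Mpo and S100a9 were thus 3.89-fold and 2.15-fold above FRC in LEC, and were highest in BEC. Of 13 macrophage markers, 10, 10 and 8 were well above background, with summed levels of 20.6 in LEC, 8.70 in BEC and 18.9 in FRC. Adgre1, which encodes the macrophage antigen F4/80, read -2.77 in LEC, -4.07 in BEC and was dim in FRC at -4.73. Itgam and Cd163 were dim on all 3. The complement genes C1qa, C1qb and C1qc, which macrophages make, were 3.65-fold, 2.92-fold and 2.84-fold above FRC in LEC and 3.05-fold, 2.62-fold and 3.23-fold above BEC. Cd14 and Aif1 went the other way against FRC, 2.21-fold and 2.19-fold lower in LEC, and Fcgr1 was detected in FRC alone. Csf1r and Lyz2 were 1.52-fold and 1.74-fold above FRC in LEC. Over the 11 macrophage markers compared, the median LEC minus FRC difference was 1.45, and over the 10 compared with BEC it was 1.35. Mrc1, which lymphatic endothelium also expresses, was at least 39.4-fold above FRC in LEC. The part of macrophage RNA in the LEC levels of Mmp9 and Mmp13 was not tested, nor was that of neutrophil RNA in the Mmp9 levels.

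The stromelysins cut proteoglycans and activate other MMPs. Mmp3, stromelysin 1, read -1.19 in LEC, -4.12 in BEC and 3.92 in FRC. It was 34.5-fold lower in LEC and 262-fold lower in BEC than in FRC, and 7.60-fold higher in LEC than in BEC. This was the widest range of any member between 2 arrays that both measured it. The BEC signal lay close to the lowest value well above background, and with normexp background correction the BEC minus FRC difference was -6.08, against -8.03, and the LEC minus BEC difference 1.51, under 4-fold. Mmp11, stromelysin 3, which unlike most MMPs is activated inside the cell, read 0.24 in LEC, 0.71 in BEC and 2.71 in FRC. It was 5.53-fold lower in LEC than in FRC, and BEC lay below FRC by just short of 4-fold. Mmp10, stromelysin 2, stayed at the detection limit, at -4.15 in LEC, -4.11 in BEC and -4.55 in FRC. Mmp7, matrilysin, read -2.91 in BEC, and was dim in LEC at -4.21 and in FRC at -5.73. Its BEC signal was at least 2.69-fold above FRC.

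The membrane-type MMPs act at the cell surface, and their genes had differing patterns. Mmp14, the main cell-surface collagenase and the activator of pro-MMP2, read 5.11 in LEC, 2.45 in BEC and 5.63 in FRC. It was 9.08-fold lower in BEC than in FRC and 6.35-fold higher in LEC than in BEC, whereas LEC and FRC differed by 1.43-fold. Its second probe gave a BEC minus FRC difference of -2.72. Mmp15 ran the other way, at -2.34 in LEC, 2.09 in BEC and -2.98 in FRC. BEC was 33.6-fold above FRC, and LEC was 21.6-fold below BEC. Mmp16 was seen on the FRC array only, at -0.91, with dim signals of -6.44 in LEC and -5.21 in BEC, at least 9.78-fold and 11.1-fold lower. Its second probe was dim on every array. Mmp17, anchored by a lipid tail rather than a transmembrane segment, was nearly level at 0.96 in LEC, 0.07 in BEC and 0.30 in FRC. Mmp24 was low throughout, from -3.89 to -3.20.

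Of the remaining MMPs, Mmp23 and Mmp19 had their highest signal in FRC. Mmp23, which is held in the membrane by its amino-terminal end, read -0.51 in LEC, -2.07 in BEC and 4.56 in FRC, 33.6-fold and 99.2-fold lower in the endothelia. Mmp19 read -3.47 in LEC, -4.26 in BEC, where it was dim, and 1.78 in FRC, 38.3-fold and at least 66.1-fold lower. Mmp28, epilysin, was level, between -3.90 and -3.78. Over the whole family, 2 of 13 MMPs compared were at least 4-fold above FRC in LEC and 6 below, and in BEC 1 of 15 was above FRC and 7 below. Over all genes the shares were 4.89% above and 5.93% below in LEC, and 6.59% above and 7.57% below in BEC. The counts of 1 and 2 above FRC say nothing about the MMPs as a family.

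**Figure D2:**
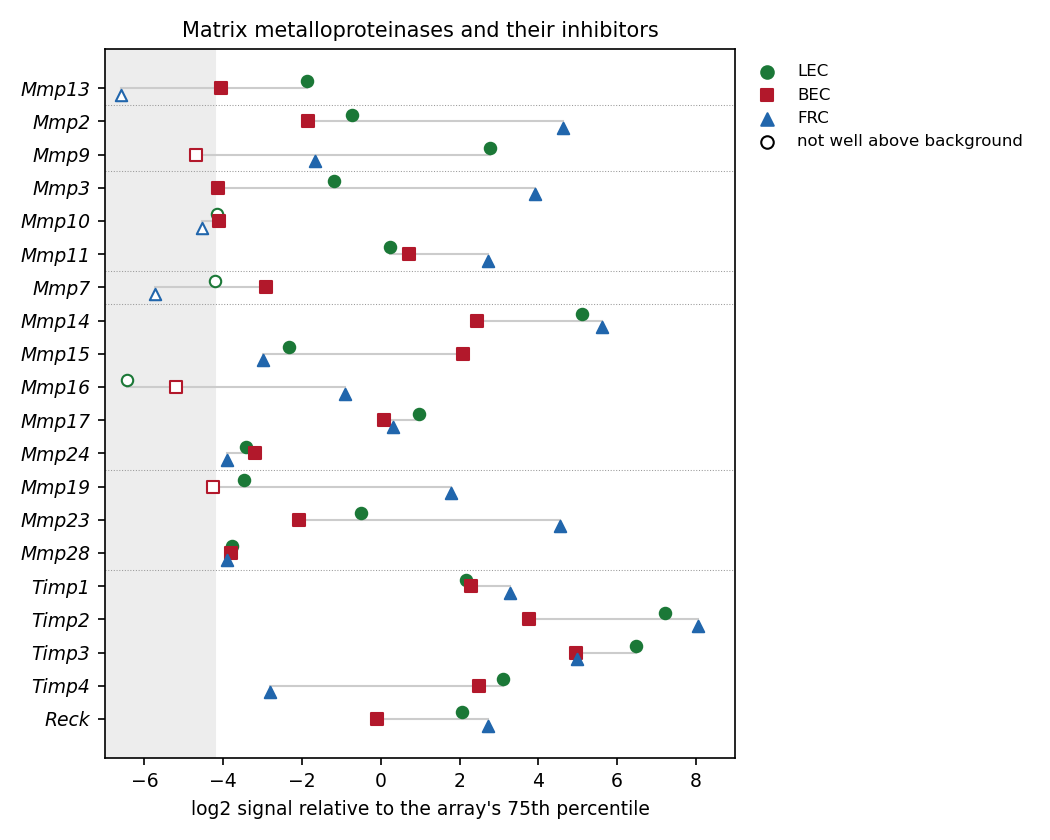
Log2 signal relative to the 75th percentile of each array (x axis) for the 15 MMPs and 5 inhibitors detected on any array, with 1 point each for LEC (circle), BEC (square) and FRC (triangle); open symbols are not well above background, and the grey band lies below the lowest signal well above background in LEC. Rows are different probes, so only points within a row can be compared. Mmp2, Mmp3, Mmp19 and Mmp23 are far to the right in FRC, Mmp9 in LEC, Mmp15 in BEC, and Timp4 far to the left in FRC.

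Timp2 and Reck, among the inhibitors, shared with Mmp14 a lower signal in BEC than in LEC and FRC. TIMP2 inhibits MMPs and also bridges pro-MMP2 to MMP14 for activation. Timp2 read 7.22 in LEC, 3.77 in BEC and 8.07 in FRC, 19.6-fold lower in BEC than in FRC and 10.9-fold higher in LEC than in BEC. LEC and FRC differed by 1.80-fold. Reck read 2.05 in LEC, -0.10 in BEC and 2.73 in FRC, 7.11-fold lower in BEC than in FRC and 4.44-fold higher in LEC than in BEC. Of the 3 genes of this activation system, Mmp14 and Timp2 were therefore within 2-fold between LEC and FRC, while Mmp2 was 40.6-fold apart between them.

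The promoters of Mmp14, Timp2 and Reck are shown because the 3 genes were at least 4-fold lower in BEC than in LEC and FRC. Mmp3, Mmp9 and Adam33 were also that much lower in BEC than in both by their brightest probes. None of the 3 promoters shown held the AP-1 or TATA motif, and all 3 held a GC box (GGGCGG on either strand, in capitals). That motif does not set them apart: 28 of the 48 members with a promoter held it in a listed window. Among these were Mmp15 and Adamts9, which were bright in BEC. Counted by window, 35.7% of all listed promoters held it. They are from RefSeq on GRCm38.p6, 120 bases before the start, on the strand of the gene.
Mmp14, chr14:54431478-54431597 (+): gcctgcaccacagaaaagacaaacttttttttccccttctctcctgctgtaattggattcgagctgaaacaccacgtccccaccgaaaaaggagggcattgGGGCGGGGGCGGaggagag
Timp2, chr11:118355412-118355531 (-): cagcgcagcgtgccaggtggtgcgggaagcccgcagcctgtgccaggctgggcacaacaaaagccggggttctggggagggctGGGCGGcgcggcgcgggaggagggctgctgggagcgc
Reck, chr4:43875410-43875529 (+): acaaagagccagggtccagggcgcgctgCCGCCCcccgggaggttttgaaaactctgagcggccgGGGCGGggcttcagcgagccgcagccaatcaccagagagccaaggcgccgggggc

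Of the 5 inhibitors, Timp4 alone was at least 4-fold above FRC in LEC and in BEC. It read 3.09 in LEC, 2.51 in BEC and -2.82 in FRC, 60.1-fold and 40.1-fold above FRC, and the endothelia differed by 1.50-fold. Its single probe lies on chromosome 6 at 115196120 to 115196179. Adipocyte markers, given because Timp4 is also known from fat, had summed levels of 293 in LEC, 837 in BEC and 28.6 in FRC, of which Fabp4, a gene that capillary endothelium expresses too, is the brightest. Of 6 compared, 3 were at least 4-fold above FRC in LEC and 1 below, and in BEC 4 were above and 1 below. Cfd was 6.70-fold and 32.1-fold above FRC in LEC and BEC, Cidec 5.11-fold and 17.7-fold, and Retn 2.61-fold and 10.5-fold. Adipoq read -0.66 in LEC, 0.80 in BEC and 0.38 in FRC, and Plin1 was brightest in FRC, at -0.23. The part of fat-cell RNA in the Timp4 levels was not tested. Timp1, an inducible inhibitor, read 2.16 in LEC, 2.29 in BEC and 3.27 in FRC, and Timp3, which binds to the matrix and also inhibits ADAM17, read 6.47, 4.97 and 4.97. Neither was 4-fold apart in any comparison.

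Among the ADAMTS genes FRC was again the bright side: in LEC 1 of 16 was at least 4-fold above FRC and 8 below, and in BEC 2 of 16 were above and 8 below. Over all genes 4.89% were that far above FRC in LEC and 5.93% below, and in BEC 6.59% above and 7.57% below. The counts of 1 and 2 above FRC thus say nothing about the family. None of the 12 ADAMTS genes compared was 4-fold apart between LEC and BEC. Of all genes, 3.39% were that much higher in LEC and 3.38% in BEC, so this is near the background. ADAMTS2, ADAMTS3 and ADAMTS14 remove the amino-terminal propeptide of fibrillar procollagens, and ADAMTS3 also takes part in activating the lymphatic growth factor VEGF-C. Adamts2 read 0.22 in LEC, -1.30 in BEC and 5.23 in FRC, 32.3-fold and 92.7-fold lower in the endothelia. Its 3 other probes gave -4.79, -2.53 and -2.87 for LEC minus FRC. Adamts3 read -0.49 in FRC and was dim in LEC at -5.03 and in BEC at -6.46, at least 13.1-fold and 14.8-fold lower. The other 2 Adamts3 probes were dim on every array. Adamts14 was nearly level, at -0.47 in LEC, -0.98 in BEC and -1.23 in FRC.

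ADAMTS1, 4, 5, 8, 9, 15 and 20 cut hyalectans, the large hyaluronan-binding proteoglycans such as versican and aggrecan. Adamts5, the main aggrecanase of mouse cartilage, read 2.22 in LEC, 0.46 in BEC and 5.34 in FRC, 8.74-fold and 29.5-fold lower in the endothelia. Adamts1, whose probe lies 67.6 kb away on chromosome 16, differed from it: it read 3.17 in LEC, 3.50 in BEC and 2.80 in FRC, within 1.63-fold. A second Adamts1 probe read -1.75 in LEC, -0.72 in BEC and -3.44 in FRC, so the size of the Adamts1 difference depends on the probe. Adamts15 read -2.85 in LEC, -1.50 in BEC and 1.95 in FRC, 27.9-fold and 10.9-fold lower. Adamts8, 63.2 kb from Adamts15 on chromosome 9, read -3.15, -3.07 and -0.43, 6.61-fold and 6.26-fold lower. This neighbouring pair thus had the same bright population, unlike Adamts1 and Adamts5. Adamts20 read -0.10 in FRC and was dim in LEC at -5.72 and in BEC at -6.54, at least 17.1-fold and 19.4-fold lower, but its other 2 probes were dim on every array.

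Adamts9, the closest relative of Adamts20, went the opposite way. It read 2.51 in LEC, 2.97 in BEC and -0.80 in FRC, 9.95-fold and 13.7-fold above FRC. Its second probe gave 0.80 and 0.95, the same direction at under 2-fold. Adamts4 did not pass 4-fold, at -1.58 in LEC, -0.92 in BEC and -1.57 in FRC. ADAMTS7 and ADAMTS12 both cut cartilage oligomeric matrix protein, and their genes were on opposite sides. Adamts7 read 0.35 in LEC, 1.45 in BEC and -1.11 in FRC, 5.89-fold above FRC in BEC, and its second probe gave 2.56 on the log2 scale for BEC minus FRC. Adamts12 read -1.99 in LEC, -1.47 in BEC and 2.15 in FRC, 17.6-fold and 12.3-fold lower in the endothelia. For Adamts12 the other probes gave smaller differences, of -1.22 and at least -0.16 for LEC minus FRC and of -0.52 and at least -0.34 for BEC minus FRC.

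Of the other ADAMTS genes, Adamts16 read -0.95 in FRC and was dim in LEC at -5.14 and in BEC at -4.96, at least 9.47-fold lower in LEC. The second Adamts16 probe was dim on every array. Adamts19 was also detected in FRC alone, at -2.47, which gave a bound of at least 3.31-fold and 3.75-fold. Adamts10, which acts on fibrillin microfibrils, read -2.28 in LEC, -1.73 in BEC and -0.66 in FRC. Adamts18 stayed within 4-fold, from -2.96 in FRC to -2.02 in BEC.

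**Figure D3:**
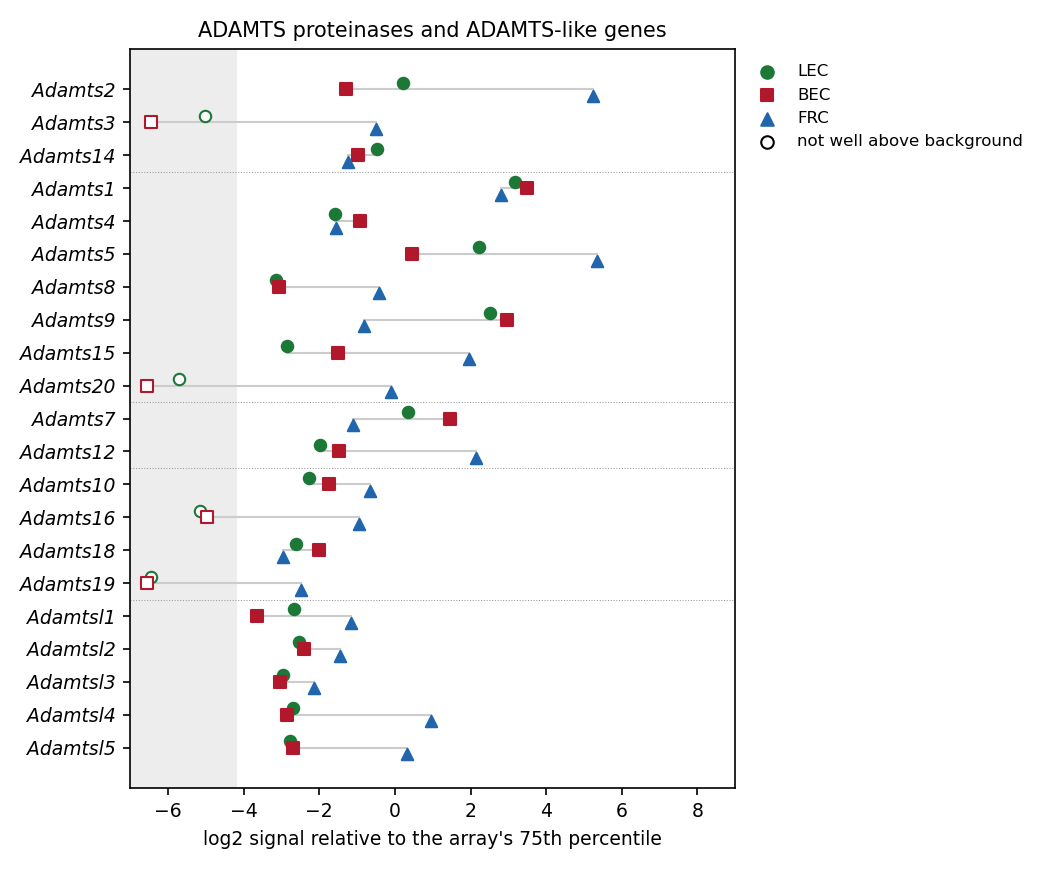
Log2 signal relative to the 75th percentile of each array (x axis) for the 16 ADAMTS and 5 ADAMTS-like genes detected on any array, with 1 point each for LEC (circle), BEC (square) and FRC (triangle), open where not well above background. Only points within a row can be compared. The FRC triangle lies to the right in most rows, and Adamts9 and Adamts7 are the rows where it lies furthest left of the endothelial points.

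ADAMTS-like proteins resemble the ADAMTS enzymes but lack the proteinase domain and bind microfibrils. All 5 genes were detected on every array, and every measured difference from FRC was below 0. Adamtsl4 read -2.70 in LEC, -2.86 in BEC and 0.97 in FRC, 12.7-fold and 14.2-fold lower in the endothelia. Adamtsl5 read -2.79, -2.68 and 0.33, 8.68-fold and 8.08-fold lower. The second Adamtsl5 probe, dim in LEC and BEC, gave -1.01 or beyond for LEC minus FRC and -1.19 or beyond for BEC minus FRC. Adamtsl1 read -2.66 in LEC, -3.65 in BEC and -1.16 in FRC, 5.62-fold lower in BEC and 2.82-fold lower in LEC. Its second probe was dim on every array. Adamtsl2 and Adamtsl3 did not pass 4-fold through their brightest probes. A second Adamtsl3 probe did: it read -0.38 in FRC and was dim in LEC and BEC, with a LEC minus FRC difference of -3.82 or beyond.

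Of 19 ADAMs compared, 1 was at least 4-fold above FRC in LEC and 1 below, and in BEC 0 were above and 2 below. The shares over all genes were 4.89% above and 5.93% below in LEC, and 6.59% above and 7.57% below in BEC, so these counts are near the background and say nothing about the ADAMs as a family. The 10 genes of proteolytic ADAMs were all detected on at least 1 array. ADAM10 sheds Notch receptors and cadherins. Adam10 read -1.87 in LEC, -2.48 in BEC and -4.05 in FRC, 4.53-fold and 2.98-fold above FRC, with the FRC signal near the detection limit and 1 probe for the gene. ADAM17 releases TNF and L-selectin. Adam17 read 1.38 in LEC, -0.15 in BEC and 1.56 in FRC, 3.26-fold lower in BEC than in FRC, and its second probe gave -1.66 against -1.71 on the log2 scale.

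Adam15, a disintegrin of endothelial junctions, read 3.24 in LEC, 5.31 in BEC and 3.39 in FRC. LEC was 4.21-fold below BEC, and BEC 3.78-fold above FRC. The second probe gave -2.47 for LEC minus BEC. Adam33, known from airway smooth muscle and fibroblasts, read 0.10 in LEC, -5.77 in BEC and -1.54 in FRC. Its brightest probe was dim in BEC while both other probes were well above background there, so its differences are bounds. LEC minus BEC was at least 4.48 by the brightest probe, and 3.18 and 1.00 by the others. For BEC minus FRC the brightest probe gave -2.83 or beyond, 1 other probe -1.44 and the third at least 0.18 in the opposite direction. Adam19 read -2.83 in LEC, -1.43 in BEC and 0.35 in FRC, 9.11-fold lower in LEC than in FRC. A second Adam19 probe gave -2.20, but the third was brighter in LEC, with a difference of at least 1.65.

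Adam9 was level within 4-fold, at 4.72 in LEC, 3.30 in BEC and 4.19 in FRC. Adam8, a leukocyte and activated-cell sheddase, read -2.25 in LEC, -3.26 in BEC and -4.15 in FRC, 3.74-fold above FRC in LEC. Adam28, known from lymphocytes, was level between -3.22 and -2.95. Adam12 was detected in FRC only, at -3.02, and Adamdec1, a gene of gut macrophages and fibroblasts, likewise at -2.71. Both bounds were under 4-fold. Of the ADAMs without proteolytic activity, Adam23 was detected in FRC only, at -2.47, and Adam11 read -2.41 in LEC, -2.16 in BEC and -1.73 in FRC.

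Of 18 ADAM genes known mainly from the reproductive tract, 7 were well above background on some array: Adam3, Adam4, Adam5, Adam6b, Adam25, Adam26a and Adam30. Adam5 alone passed 4-fold, at -1.66 in LEC, -2.90 in BEC and -0.74 in FRC, 4.47-fold lower in BEC than in FRC. Its second probe was dim in LEC and BEC and read -3.37 in FRC. Adam6b was level, at -0.83, -1.36 and -1.49, while the probe for its near copy Adam6a was dim on all arrays. Many of these genes are close copies of each other, so a probe may also take up RNA of a relative.

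**Figure D4:**
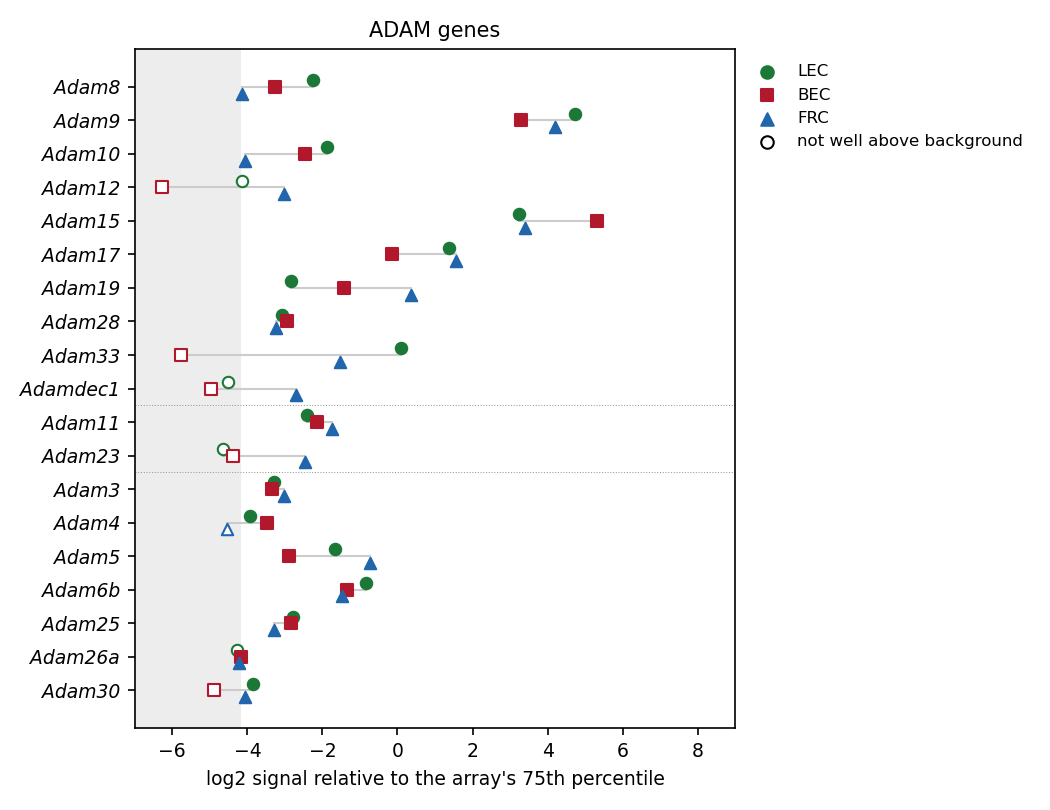
Log2 signal relative to the 75th percentile of each array (x axis) for the 19 ADAM genes detected on any array, with 1 point each for LEC (circle), BEC (square) and FRC (triangle), open where not well above background. Only points within a row can be compared. Most rows are narrow, and Adam33, Adam19 and Adam15 are the widest among those that reach beyond 0.

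Normexp background correction, which shrinks differences of dim probes, moved 37 of the 57 called differences by over 1.5 times. It ended the LEC against FRC calls of Adam10, Mmp13, Adamts3, Adamts8, Adamts16, Adamtsl5 and Mmp16, the BEC against FRC calls of Adam5, Adam33, Adamts8, Adamts16, Adamtsl1, Mmp9 and Mmp16, and the LEC against BEC calls of Mmp3, Mmp13 and Reck.

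Second probes were available for part of the calls. For LEC against FRC, 8 of the called members had 12 other probes that could be compared, of which 11 went the same way and 7 passed 4-fold as well. For BEC against FRC it was 14 of 16 probes in 11 members, 8 of them past 4-fold, and for LEC against BEC 5 of 5 in 4 members, 4 of them past 4-fold. The probes that did not go the same way belong to Adam19, Adam33 and Adamts9, the last with a dim probe that gave no fold.

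**Figure D5:**
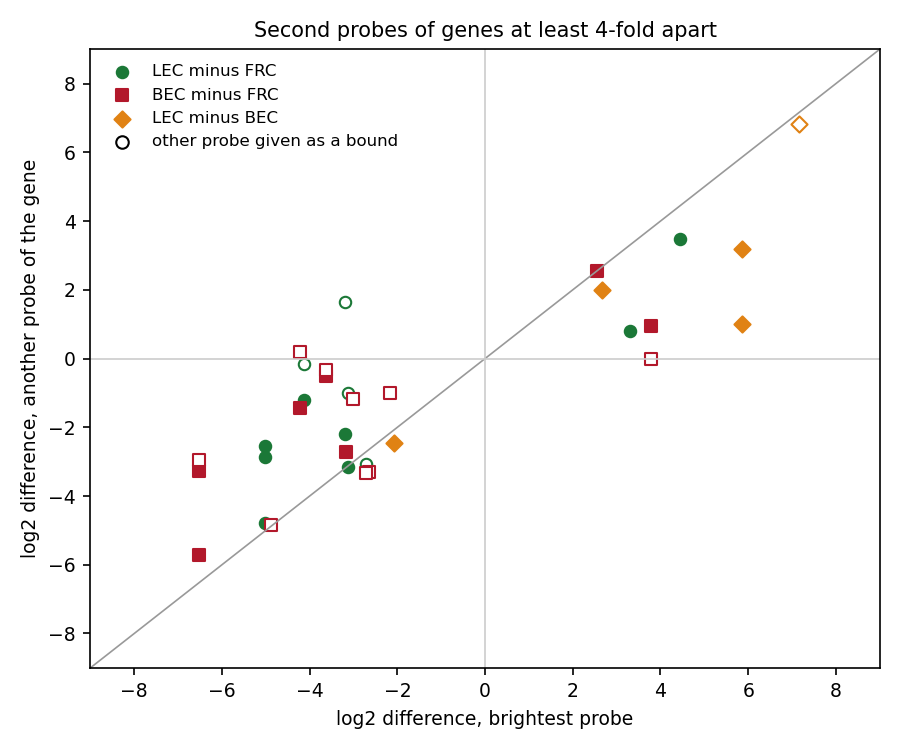
Log2 difference of another probe of the same gene (y axis) against that of the brightest probe (x axis) for members at least 4-fold apart, in LEC minus FRC (circles), BEC minus FRC (squares) and LEC minus BEC (diamonds); open symbols are bounds and the diagonal marks equal values. Most points lie between the horizontal axis and the diagonal, that is in the same direction with a smaller size, and the open circle above 0 on the left is Adam19.

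Genes that act with these enzymes were read from lists. The lists are short, and over all genes 4.89% were at least 4-fold above FRC in LEC and 5.93% below, and 6.59% above and 7.57% below in BEC, so a count of 1 or 2 says nothing about a list as a whole. Tetraspanins and iRhoms escort ADAM10 and ADAM17 to the cell surface: of 8 compared, 2 passed 4-fold upward in LEC against FRC and 0 downward, and in BEC against FRC 1 passed each way. Tspan15 read 0.56 in LEC, 1.80 in BEC and -1.72 in FRC, 4.84-fold and 11.4-fold above FRC. Tspan14 was 5.58-fold above FRC in LEC. Tspan33 read 1.23 in LEC, -3.65 in BEC and 0.02 in FRC, 29.4-fold higher in LEC than in BEC. Rhbdf2, the iRhom of haematopoietic cells, read 1.78, 1.65 and 0.62.

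Of the ligands that ADAMs shed, 3 of 8 passed 4-fold upward in LEC against FRC and 1 downward, and the counts for BEC against FRC were the same. Hbegf read -1.21 in LEC, 1.73 in BEC and -3.98 in FRC, 52.4-fold above FRC in BEC. Tgfa read 1.78 in LEC, -0.95 in BEC and -3.06 in FRC, 28.8-fold above FRC in LEC. Tnf was dim in FRC and at least 5.67-fold higher in LEC. Btc read -2.26 in BEC and was dim in LEC at -4.89. Its brightest probe was also dim in FRC, at -5.72, but another Btc probe was well above background there. Nrg1 was detected in FRC alone, at least 4.49-fold above LEC.

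Proprotein convertases, which cleave the precursors of many of these enzymes, had 2 of 4 genes lower in each endothelium. Pcsk6 read 1.70 in LEC, -0.36 in BEC and 5.01 in FRC, 9.87-fold and 41.2-fold lower. Pcsk5 read 0.41 in LEC, -0.73 in BEC and 3.36 in FRC, 7.73-fold and 17.0-fold lower, while Furin, the ubiquitous convertase, read 2.46, 3.45 and 2.60. In the plasminogen system, which can activate MMPs, 1 of 7 genes was 4-fold apart: Plau, the urokinase gene, read -0.11 in FRC and was dim in LEC and BEC, at least 17.0-fold and 19.3-fold lower. Lrp1, a receptor that clears MMPs and ADAMTS enzymes, read -0.50 in LEC, -0.77 in BEC and 4.22 in FRC, 26.4-fold and 31.8-fold lower. Of 9 such inhibitors, inducers and clearance genes compared, 3 were lower in LEC than in FRC and 2 higher. A2m, a broad proteinase trap, was at least 5.94-fold above FRC in LEC, and Spock3, dim in BEC and FRC, at least 9.63-fold. Thbs2 read -1.25 in LEC, -2.56 in BEC and 1.52 in FRC, 6.80-fold and 16.9-fold lower, and Tfpi2 had log2 differences of -2.43 for LEC minus FRC and -1.72 for BEC minus FRC.

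Among astacin proteinases and their enhancers, which finish procollagen at the other end, Pcolce read 2.59 in LEC, 3.58 in BEC and 6.99 in FRC, 21.1-fold and 10.6-fold lower. Pcolce2 read -0.72 in LEC, -3.05 in BEC and 5.64 in FRC, 82.5-fold and 415-fold lower. Tll1 ran the other way, dim in FRC and above it by at least 5.62-fold in LEC and 5.07-fold in BEC. Bmp1, the procollagen C-proteinase itself, was 3.85-fold and 3.48-fold lower in the endothelia, short of 4-fold. Of the hyalectan substrates, Vcan, versican, read -3.93 in LEC, -2.58 in BEC and 0.38 in FRC, 19.9-fold and 7.83-fold lower. The others ran the other way or were dim: Bcan, brevican, was at least 5.14-fold above FRC in LEC and dim in BEC, Acan, aggrecan, was 2.53-fold and 2.17-fold above FRC, and Ncan was dim on all 3 arrays. The versican gene and 4 of the 7 hyalectan-cutting ADAMTS genes thus had their highest signal on the same array.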

How the data were processed

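Total RNA of each sorted population was amplified in a single round, labelled with a fluorescent dye and hybridised to Agilent mouse arrays, per the labels' protocols. Per the submitters' processing notes, the deposited intensity values come from Agilent Feature Extraction 10.7.3.1. They are background-subtracted and detrended within each array, per the file headers, with no scaling between arrays. The series matrix holds intensity values that the authors had also normalized between arrays, by a method not given in the sources used here.

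From the scanner files, spots marked as outliers were left out (18 probes lost), spots of a probe were averaged on the log2 scale, and the 75th percentile of each array was subtracted (267.9 in LEC, 360.9 in BEC and 386.8 in FRC). Names other than those of the genes described were updated by RefSeq accession (GRCm38.p6, names only), which matched 26681 probes. Probe positions are on mm9 per the file headers, and exon or UTR annotation of that build was not used here. Comparison required at least 1 probe of the gene to be well above background on one of the arrays, and a call needed its own brightest probe well above background on the brighter array. All of the 79 genes and of the genes on the pathway lists that were at least 4-fold apart in any comparison are named. No spot was saturated. The number of arrays limits the precision. Normexp used limma 3.58.1 with an offset of 50, and the comparison step was tested on simulated data. Members and lists were chosen with earlier results of these data known.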

Additional observations from a re-analysis of the deposited data

How the results depend on the processing

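Counts and medians were recomputed under normexp background correction, median scaling, quantile normalization, the deposited series matrix, no filter on dim probes, and the mean over a gene's probes. No called difference changed sign. Normexp, which adds an offset and so shrinks differences of dim probes, left 3 of 5 LEC calls against FRC and 4 of 7 LEC calls against BEC. Of the FRC calls it kept 12 of 17 against LEC and 15 of 22 against BEC, and added Adamtsl3 to the BEC comparison. Over all genes it gave 554 against 902 calls in LEC and 639 against 1094 in FRC, 747 against 1240 in BEC and 861 against 1426 in FRC, and 289 against 622 in LEC and 325 against 620 in BEC. Quantile normalization and the series matrix left 1 of the 2 members higher in BEC than in LEC, without Adam15. The share of member calls between LEC and BEC that were higher in LEC was 77.8%, 66.7% with normexp and 87.5% with either of those. These shares rest on few calls: 7 in LEC and 2 in BEC, 4 and 2 with normexp, and 7 and 1 with either of those. Over all genes the calls were 622 in LEC and 620 in BEC. With no filter the LEC calls against BEC over all genes rose to 1019.

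The LEC minus FRC median of -0.68 became -0.27 with normexp, -0.59 with quantile normalization and the series matrix, and -0.058 with no filter. The BEC minus FRC median of -1.02 became -0.64 with normexp, -0.32 with no filter and -1.09 with the mean over probes. The LEC minus BEC median of 0.07 became 0.22 with normexp, 0.011 with median scaling, 0.0082 with quantile normalization, 0.0086 with the series matrix, 0.15 with no filter and 0.13 with the mean over probes. The mean over probes ended the calls of Adam19 (LEC against FRC) and of Adam33, Adam5 and Adamts12 (BEC against FRC). The cause of these changes was not tested. Signal over background limits the bounds. No paired analysis was possible because each population has 1 array.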
